A study of Arabidopsis thaliana with 82 samples.

Results

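The thalianol and marneral gene clusters are groups of neighbouring genes on chromosome 5 of Arabidopsis thaliana that encode the synthesis of triterpenes, and 7 of their genes were followed here through cutting and grafting of the seedling stem. The 7 were taken by gene identifier from a table of 27416 genes, 4 of them from the thalianol cluster (THAS1, AT5G48010; CYP708A2, AT5G48000; CYP705A5, AT5G47990; and AT5G47980) and 3 from the marneral cluster (MRN1, AT5G42600; CYP71A16, AT5G42590; and CYP705A12, AT5G42580). They had been picked because their levels were high in separated tops at 120 to 240 h, so those levels are given as a description with no test.

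The series holds poly(A) RNA-seq values of hypocotyl, the stem between cotyledons and root, from Col-0 seedlings that were 7 days old and grown at 20 °C in 8 h of light on medium without sucrose. All plants, intact ones included, had lost 1 cotyledon. Hypocotyls were left intact, or were cut through and kept apart, giving separated tops and separated bottoms, or the top of 1 plant was set on the bottom of another, giving grafted tops and grafted bottoms, with tissue taken on each side of the cut. These 5 conditions were sampled at 6, 12, 24, 48, 72, 120, 168 and 240 h after cutting, and intact plants also at 0 h, with 2 biological replicates in each of 41 groups, 82 libraries in all. The labels name no transgene, mutant or added agent for any group. Depth, estimated for 75 of the 82 libraries, was 7.56 to 20.2 M reads, and replicates correlated across genes at r = 0.971 to 0.993. Levels are written as x, the deposited library-normalised value rescaled by 1 constant so that a median library sums to 1000000, and an x of 1 stood for 5.78 to 22.0 reads. In such bulk tissue a larger share of cells of a type and more RNA per cell cannot be told apart.

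Plant triterpenes are made from 2,3-oxidosqualene, the last shared precursor of sterols, which an oxidosqualene cyclase folds into a ring scaffold that cytochrome P450 enzymes and acyltransferases then decorate. In the thalianol cluster THAS1 is the cyclase, thalianol synthase, CYP708A2 hydroxylates thalianol, CYP705A5 desaturates the product and AT5G47980 is an acyltransferase of the BAHD family. In the marneral cluster MRN1 is the cyclase, marneral synthase, CYP71A16 oxidises its product and CYP705A12 is a further P450 gene. Both clusters are known as root-expressed clusters, with little transcript in shoots.

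On the TAIR10.1 assembly the thalianol members lie within chr5:19428888-19461706, a stretch of 32.8 kb, and the marneral members within chr5:17023502-17058245, a stretch of 34.7 kb. Between members 0 other protein-coding genes are annotated in either cluster, and genes of other types were not counted. The 250 bases before the annotated start are shown for both cyclases and for the P450 gene of each cluster that the tests below turn on, since members of a cluster were high in the same libraries. They come from RefSeq's TAIR10.1 at chr5:19456587-19456836 (THAS1, plus strand), chr5:19447867-19448116 (CYP708A2, minus strand), chr5:17033801-17034050 (CYP71A16, minus strand) and chr5:17053203-17053452 (MRN1, plus strand), each written 5′ to 3′ on the strand of its gene. Capitals mark every match to the motifs searched on either strand.
THAS1: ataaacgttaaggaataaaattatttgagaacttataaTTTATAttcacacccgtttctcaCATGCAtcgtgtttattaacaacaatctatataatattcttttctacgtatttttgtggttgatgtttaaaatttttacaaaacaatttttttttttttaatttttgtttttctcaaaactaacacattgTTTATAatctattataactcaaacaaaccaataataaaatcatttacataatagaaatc
CYP708A2: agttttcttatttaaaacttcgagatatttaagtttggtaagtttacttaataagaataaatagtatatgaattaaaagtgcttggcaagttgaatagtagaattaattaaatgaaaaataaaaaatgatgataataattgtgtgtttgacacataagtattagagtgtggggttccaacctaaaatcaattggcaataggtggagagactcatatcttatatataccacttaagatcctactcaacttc
CYP71A16: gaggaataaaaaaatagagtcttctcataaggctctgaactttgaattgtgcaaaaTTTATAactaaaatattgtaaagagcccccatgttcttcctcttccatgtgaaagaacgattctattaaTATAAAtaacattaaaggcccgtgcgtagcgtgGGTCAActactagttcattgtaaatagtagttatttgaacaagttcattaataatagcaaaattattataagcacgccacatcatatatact
MRN1: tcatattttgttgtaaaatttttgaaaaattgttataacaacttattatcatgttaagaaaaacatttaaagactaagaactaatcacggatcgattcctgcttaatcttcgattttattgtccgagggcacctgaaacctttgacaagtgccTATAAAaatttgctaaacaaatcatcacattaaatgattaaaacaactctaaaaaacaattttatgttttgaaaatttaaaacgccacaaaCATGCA
The capitals in THAS1 and MRN1 include CATGCA, the RY element, which stood in the windows of 3 of 7 members (THAS1, CYP705A5 and MRN1) and in 9.72% of 27443 promoters of the same 300-base window, 250 before and 50 after the start. TATAAA, the TATA box core, stood in 5 of 7 members and in 52.1% of all promoters. TTGACC, 1 form of the W-box, stood in CYP71A16 alone among the 7, and in 14.2% of all, and the G-box CACGTG in AT5G47980 alone, and in 7.68% of all. TTGACT and the auxin response element core TGTCTC stood in 0 of 7 members, against 21.8% and 14.2% of all promoters. The CYP708A2 stretch holds no match to any of these letters. None of the 6 motifs searched was held by all 7 members, and a match describes letters in a window only.

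In separated tops the thalianol members passed from near 0 to high levels between 72 and 120 h. THAS1 was at 0.49 and 0.89 in the replicates at 72 h, at 149 and 224 at 120 h, at 630 and 485 at 168 h, and at 236 and 179 at 240 h. CYP708A2 was at 0.40 in both replicates at 72 h, then at 115 and 166, at 517 and 386, and at 205 and 159 at the same 3 later times. CYP705A5 was at 0.57 and 1.38 at 72 h, then at 217 and 319, at 628 and 378, and at 108 and 75.7. In each of these 3 genes both replicates were highest at 168 h. AT5G47980 was listed at 0 in both replicates at 72 h, then at 40.0 and 61.1, at 86.3 and 48.6, and at 8.01 and 4.13, so it too was lower at 240 h than at 168 h.

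The marneral members appeared in the same libraries. CYP71A16 was at 20.3 and 22.1 at 120 h, at 32.8 and 18.1 at 168 h, and at 4.77 and 1.70 at 240 h. CYP705A12 was at 0.16 in both replicates at 72 h, then at 5.18 and 5.50, at 26.3 and 11.8, and at 7.93 and 5.42. MRN1, the cyclase gene, was at 3.24 and 3.32 at 120 h, and the replicates then parted, with 7.20 and 0.40 at 168 h and 0.24 and 0 at 240 h. These MRN1 values stand for an estimated 71.2 and 70.4 reads at 120 h, 144 and 5.79 at 168 h, and 3.49 and 0 at 240 h, so its later course rests on few reads.

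**Figure D1:**
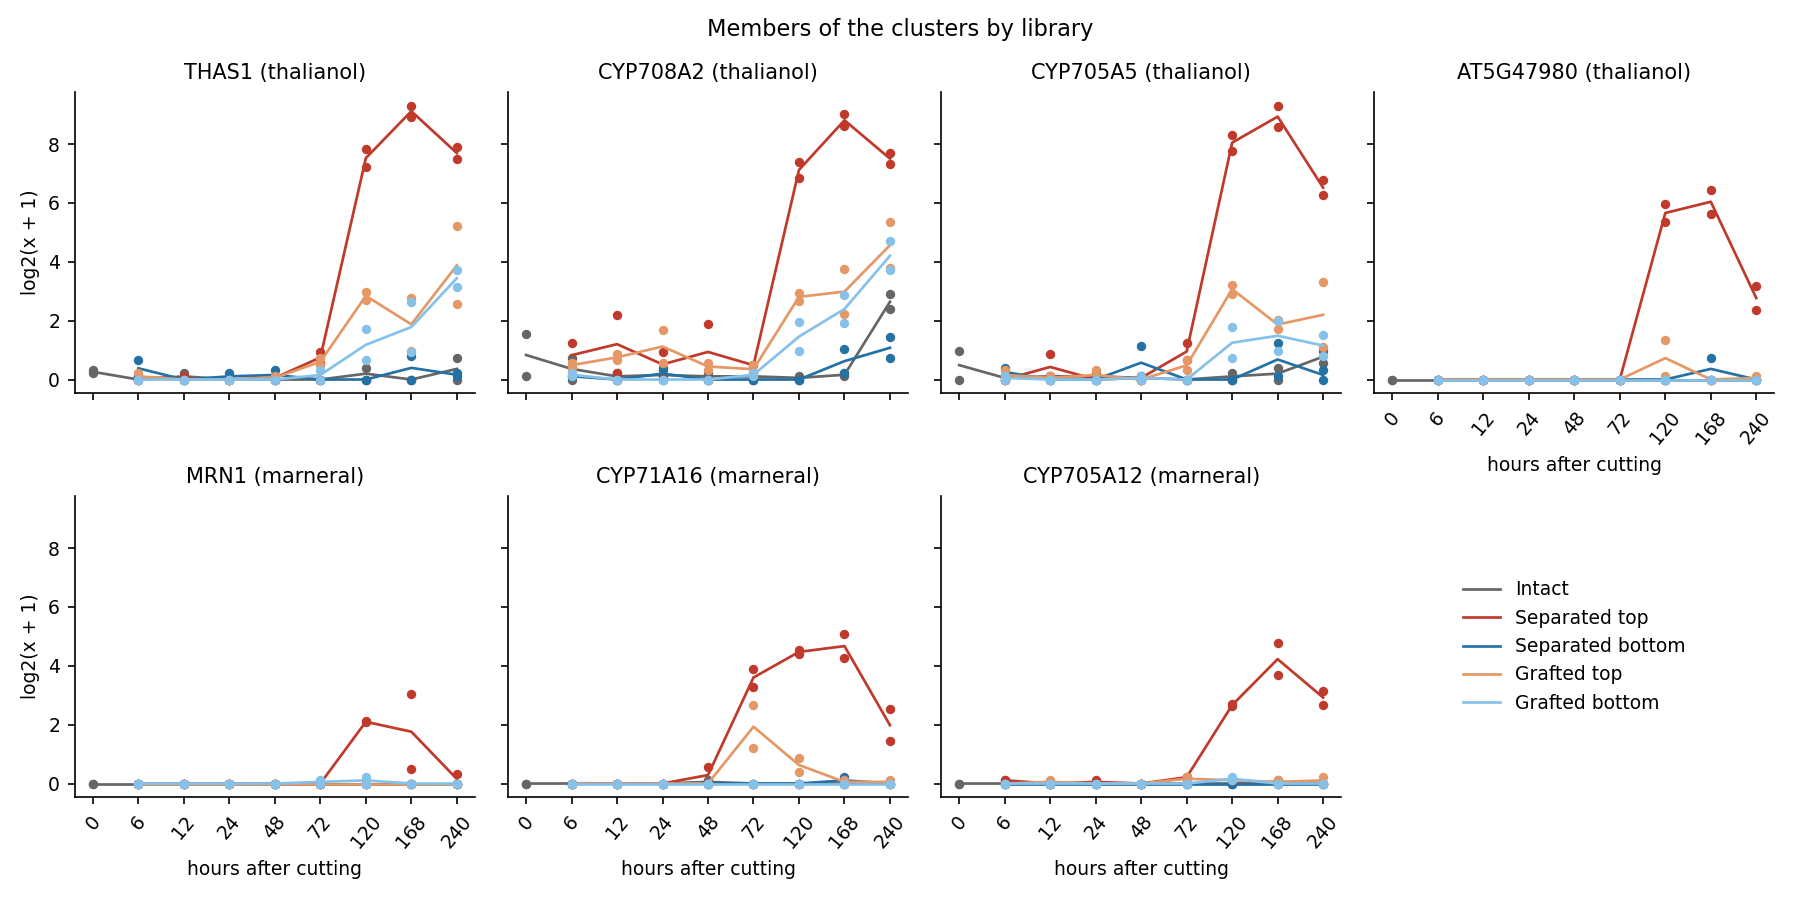
Level of each of the 7 members as log2(x + 1) against hours after cutting, with 1 point per library and lines through the mean of the 2 replicates, coloured by condition. Separated tops leave the other conditions at 120 h in 6 members and at 72 h in CYP71A16, and grafted tops rise at 120 h too, but less, in THAS1, CYP708A2 and CYP705A5.

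Outside the late separated tops the members were at or close to 0 in most of the other 76 libraries. MRN1 was listed at 0 in 74 of the 76, AT5G47980 in 72, CYP71A16 in 65 and CYP705A12 in 61, and their highest values there were 0.162, 1.54, 14.0 and 0.162. THAS1 was listed at 0 in 42, CYP705A5 in 37 and CYP708A2 in 22, with highest values of 35.9, 8.90 and 39.8. For 5 of 7 members the lowest of the 6 late separated tops lay above the highest of the other 76 libraries, as it did for 0.559% of the 20766 genes tested. The exceptions were CYP71A16, through its 72 h values, and MRN1, through its 240 h values, and since the members were picked on these libraries nothing is read from the count. All 7 members passed the filter on low values (x of 1 or more in 2 or more libraries), but without the late separated tops 4 would have: CYP708A2 with 20 such libraries, CYP705A5 with 12, THAS1 with 9 and CYP71A16 with 4.

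Within the late separated tops the make-up of each cluster shifted with time. Levels can be set against each other between genes only per length, so shares were taken of the summed values of the second deposited table, which is also divided by gene length. CYP705A5 held 45.2 and 45.0% of the thalianol sum at 120 h, 37.7 and 33.3% at 168 h, and 22.9 and 21.3% at 240 h. CYP708A2 went the other way, from 24.5 and 23.8% over 31.5 and 34.1% to 43.2 and 45.0%, and THAS1 likewise, from 20.1 and 20.6% over 24.4 and 27.5% to 31.8 and 32.3%. AT5G47980 went from 10.1 and 10.5% to 2.04 and 1.42%. Replicates of a time lay closer to each other than to those of any other time for each of these 4 genes. Thus at 120 h the desaturase gene had the highest level per length of the 4, and at 240 h the hydroxylase gene had it.

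In the marneral cluster the share moved from the oxidase gene to the other P450 gene. CYP71A16 held 73.7 and 74.3% of the marneral sum at 120 h, 50.7 and 58.5% at 168 h, and 36.6 and 24.0% at 240 h. CYP705A12 held 19.0 and 18.9%, then 42.4 and 40.6%, then 62.7 and 76.0%. MRN1 held 7.27 and 6.84% at 120 h, 6.94 and 0.943% at 168 h, and 0.746 and 0% at 240 h, the smallest share of the 3 at each time. The summed level per length of the thalianol cluster was 16.2 and 22.4 times that of the marneral cluster at 120 h, 24.3 and 35.1 times at 168 h, and 34.7 and 46.0 times at 240 h. These shares describe libraries that the choice of members used, and were not tested.

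**Figure D2:**
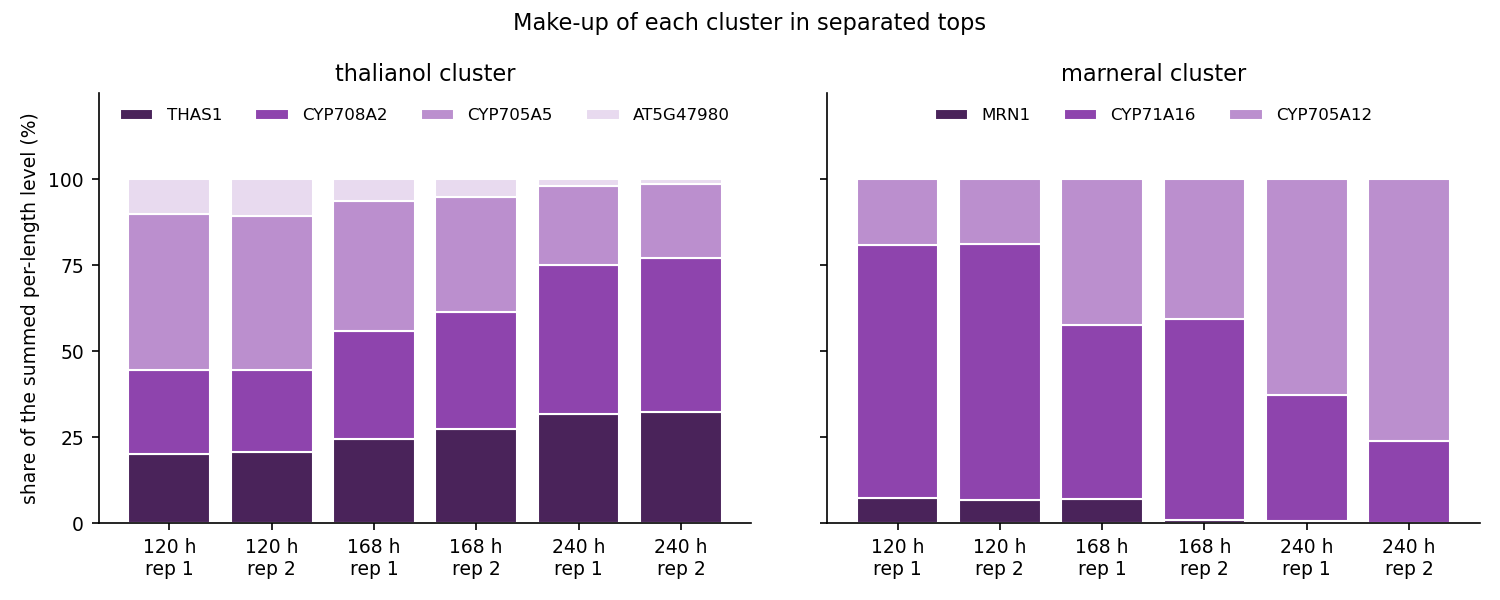
Share of each member in the summed per-length level of its cluster (%), 1 bar per separated top library from 120 to 240 h. CYP705A5 shrinks from 45.2 to 21.3% of the thalianol cluster and CYP71A16 from 73.7 to 24.0% of the marneral cluster across the bars.

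CYP71A16, the marneral oxidase gene, was the first marneral member to reach an x of 1, at 72 h in separated and grafted tops. At 48 h it was at 0.49 and 0 in separated tops, and at 72 h at 8.82 and 14.0, while MRN1 and AT5G47980 were listed at 0 in both 72 h separated tops and the other 4 members stood at 1.38 or below. Grafted tops had 1.29 and 5.34 of it at 72 h and 0 at 48 h, so every 72 h separated top lay above both grafted tops of that time. Bottoms, separated or grafted, were at 0 at 48 and 72 h, and intact tissue reached 0.0809 in 1 of 4 libraries. Differences below are in log2(x + 1), means of the differences within each time of a window, with limma's SE and a p adjusted over all 20766 genes (Benjamini-Hochberg).

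Over 48 to 72 h CYP71A16 rose by 1.94 ± 0.17 in separated tops against separated bottoms (limma, adjusted p = 4.2e-14) and by 1.92 ± 0.17 against intact tissue (limma, adjusted p = 1.1e-13). It was the 1 member of 7 called higher in each comparison, where 47.2% and 40.2% of all genes were. Grafted tops showed the smaller rise, 0.97 ± 0.17 against grafted bottoms (limma, adjusted p = 8.7e-06) and 0.94 ± 0.17 against intact tissue (limma, adjusted p = 7.5e-06), again in 1 member of 7, against 27.6% and 31.5% of all genes. Grafted tops were lower than separated tops by -0.98 ± 0.17 (limma, adjusted p = 2.4e-05), with 1 member called lower against 14.3% of all genes. In that comparison 36.8% of all calls were higher, and 56.0% under median-of-ratios scaling. These SEs pool the spread of all 41 groups, in most of which the gene was listed at 0. With the 2 conditions of a comparison alone in the fit, limma's adjusted p was 0.051 for grafted tops against bottoms and 0.107 for grafted against separated tops. The excess of tops over bottoms was larger in separated than in grafted plants by 0.98 ± 0.24 (limma interaction contrast, adjusted p = 6.8e-04), in 1 of 7 members against 32.3% of all genes. In the other 6 members no difference of 48 to 72 h passed, and of the bottoms 0 members were called by limma, with 0 at an unadjusted p under 0.05. All genes called there were 27.8% higher and 28.5% lower for separated bottoms against intact tissue, 20.3% and 26.5% for grafted bottoms against intact tissue, and 30% and 30.5% for grafted against separated bottoms.

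At 6 to 24 h CYP708A2, the thalianol hydroxylase gene, was above 0 in all 12 tops, grafted and separated. In separated tops its x was 1.38 and 0.32 at 6 h, 0.16 and 3.56 at 12 h, and 0.89 and 0.08 at 24 h. In grafted tops it was 0.49 and 0.32, then 0.57 and 0.81, then 2.18 and 0.49. The highest bottom of these times, grafted or separated, had 0.324, so the tops with 0.16, 0.08 and 0.32 lay within the range of bottoms. Summed over the thalianol members, x was 0.0809 to 4.45 in these tops and 0 to 0.647 in intact tissue of these times. Intact tissue at 0 h had sums of 0.324 and 3.08. CYP708A2 was higher in separated tops than bottoms by 0.74 ± 0.29 (limma, adjusted p = 0.0215) and in grafted tops than bottoms by 0.73 ± 0.29 (limma, adjusted p = 0.0264), the 1 member called in each, against 40.4% and 37.8% of all genes called higher. Both calls rest on single libraries. The first was lost without separated top 6 h replicate 1, 12 h replicate 2 or 24 h replicate 1 or without separated bottom 24 h replicate 1, where its lowest value was 0.41, and the second without grafted top 6 h replicate 1, 12 h replicate 2 or 24 h replicate 1, where its lowest was 0.55. With a pseudocount of 4 limma's adjusted p rose to 0.135 and 0.211.

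Against intact tissue 0 members were called at 6 to 24 h in separated tops, separated bottoms, grafted tops or grafted bottoms (limma), with 1, 0, 0 and 0 at an unadjusted p under 0.05. Of all genes 32%, 24.3%, 31.7% and 20.4% were called higher in these 4 comparisons and 30.8%, 30.4%, 30.8% and 28.4% lower. That 1 was CYP708A2 in separated tops, 0.64 ± 0.29 above intact tissue, which was called with the replicate number as a block (limma, adjusted p = 0.0220). Grafted and separated tops also gave 0 members called, in a comparison where 0.0337% of all genes were higher and 0.313% lower, and grafted and separated bottoms gave 0, where 17.5% were higher and 17.1% lower. Both had 0 members at an unadjusted p under 0.05 (limma).

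Late grafted tissue held a lower level of the thalianol genes that the late separated tops held at high level, and it was not used to pick the members. In grafted tops THAS1 was at 5.58 and 6.80 at 120 h, at 5.83 and 0.97 at 168 h, and at 35.9 and 4.86 at 240 h. CYP708A2 was at 5.42 and 6.64, then 12.5 and 3.64, then 39.8 and 12.7, and CYP705A5 at 6.55 and 8.33, then 2.27 and 3.08, then 8.90 and 1.13. Replicate 1 was the higher at 240 h in all 3 genes, and every grafted top lay below every late separated top, as for 2.87% of all genes. Since the members were picked on those separated tops, nothing is read from this lack of overlap.

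Intact tissue of the same times gave little of them. THAS1 was at 0 and 0.32, at 0 in both replicates, and at 0 and 0.65, and CYP705A5 was at 0 and 0.16, at 0.32 and 0, and at 0.49 and 0.97. CYP708A2 was at 0.08 and 0 at 120 h and at 0.16 and 0.08 at 168 h, but at 4.21 and 6.47 at 240 h, so the hydroxylase gene alone of the 3 was above an x of 1 in late intact tissue. Separated bottoms stayed at 1.70 or below in all 3 genes.

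Against intact tissue the late grafted tops were higher in THAS1 by 2.68 ± 0.26 (limma, adjusted p = 1.5e-12), in CYP708A2 by 2.50 ± 0.29 (limma, adjusted p = 4.1e-10) and in CYP705A5 by 2.02 ± 0.23 (limma, adjusted p = 3.1e-10). These were 3 of 7 members, against 30.6% of all genes called higher. Higher genes made up 55.3% of all calls there, and 43.5% under quantile normalisation. For AT5G47980, at 0 to 1.54 in grafted tops and 0 in intact tissue, the difference of 0.26 ± 0.12 did not pass (limma, adjusted p = 0.0686). The marneral members stayed near 0 in late grafted tops, where CYP71A16 was at 0.81 and 0.32 at 120 h and at 0.0809 or 0 after it, with a difference of 0.25 ± 0.14 (limma, adjusted p = 0.136). The excess over intact tissue was larger at 120 to 240 h than at 6 to 24 h in the same 3 thalianol genes, by 1.92 to 2.68, against 26.8% of all genes higher by this interaction contrast of limma.

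Grafted bottoms showed the same 3 thalianol genes. THAS1 was at 0.57 and 2.27 at 120 h, at 5.26 and 0.89 at 168 h, and at 12.2 and 7.93 at 240 h. CYP708A2 was at 0.97 and 2.83, at 6.39 and 2.75, and at 24.8 and 12.1, and CYP705A5 at 0.65 and 2.43, at 2.99 and 0.97, and at 1.86 and 0.73. Both replicates of THAS1 and of CYP708A2 were higher at 240 h than at 120 or 168 h, whereas CYP705A5 showed no such order. The differences from intact tissue were 1.95 ± 0.26 for THAS1 (limma, adjusted p = 1.0e-08), 1.73 ± 0.29 for CYP708A2 (limma, adjusted p = 2.0e-06) and 0.93 ± 0.23 for CYP705A5 (limma, adjusted p = 6.9e-04), 3 of 7 members against 25.4% of all genes. Of all calls in that comparison 47.4% were higher, 57.6% under median-of-ratios scaling and 37.2% under quantile normalisation. Here too the excess was larger than at 6 to 24 h in the 3 genes, by 1.01 to 1.98, against 23.1% of all genes by limma's interaction contrast.

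Separated bottoms, which were never joined, did not share this. There 0 members were called against intact tissue at 120 to 240 h (limma), with 0 at an unadjusted p under 0.05, where 32.4% of all genes were higher and 31.2% lower. Grafted bottoms exceeded separated bottoms in THAS1 by 1.95 ± 0.26 (limma, adjusted p = 4.0e-09), in CYP708A2 by 2.12 ± 0.29 (limma, adjusted p = 1.3e-08) and in CYP705A5 by 1.02 ± 0.23 (limma, adjusted p = 1.5e-04), 3 of 7 members against 35.6% of all genes. For CYP705A5 the call against both intact tissue and separated bottoms was lost under quantile normalisation, at limma's adjusted p of 0.075 and 0.098. That scaling moved the median of all genes in these 2 comparisons from -0.04 to -0.12 and from 0.01 to -0.12.

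Between the joined parts themselves the late tops were higher than the bottoms in CYP705A5 by 1.08 ± 0.23 (limma, adjusted p = 5.0e-04) and in THAS1 by 0.73 ± 0.26 (limma, adjusted p = 0.0326), 2 of 7 members against 12.4% of all genes, with 4 members at an unadjusted p under 0.05. CYP708A2 differed by 0.77 ± 0.29, which fell short (limma, adjusted p = 0.0507), and passed with same-numbered grafted tops and bottoms paired (limma, adjusted p = 0.0284). With grafted tops and bottoms alone in the fit no member was called, so the calls of CYP705A5 and THAS1 were both lost. The THAS1 call was lost without any 1 of 6 libraries, which were grafted bottom 120 h replicate 1, grafted top 120 h replicate 2, grafted bottom 168 h replicate 2, grafted top 168 h replicate 1, grafted bottom 240 h replicate 2 and grafted top 240 h replicate 1. Its value ran from 0.29 to 1.17 over the 12 libraries left out in turn. By mean, the late order of the 3 genes was thus separated tops, grafted tops, grafted bottoms, then intact tissue and separated bottoms. Grafted tops and bottoms overlapped in each gene, and the last pair was not called different. Grafted bottoms also overlapped intact tissue and separated bottoms in each gene. Their lowest values were 0.566 for THAS1, 0.647 for CYP705A5 and 0.971 for CYP708A2, while intact tissue reached 0.647, 0.971 and 6.47. Grafted tops overlapped intact tissue in CYP708A2, from 3.64, and separated bottoms in CYP705A5, from 1.13 against up to 1.38.

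**Figure D3:**
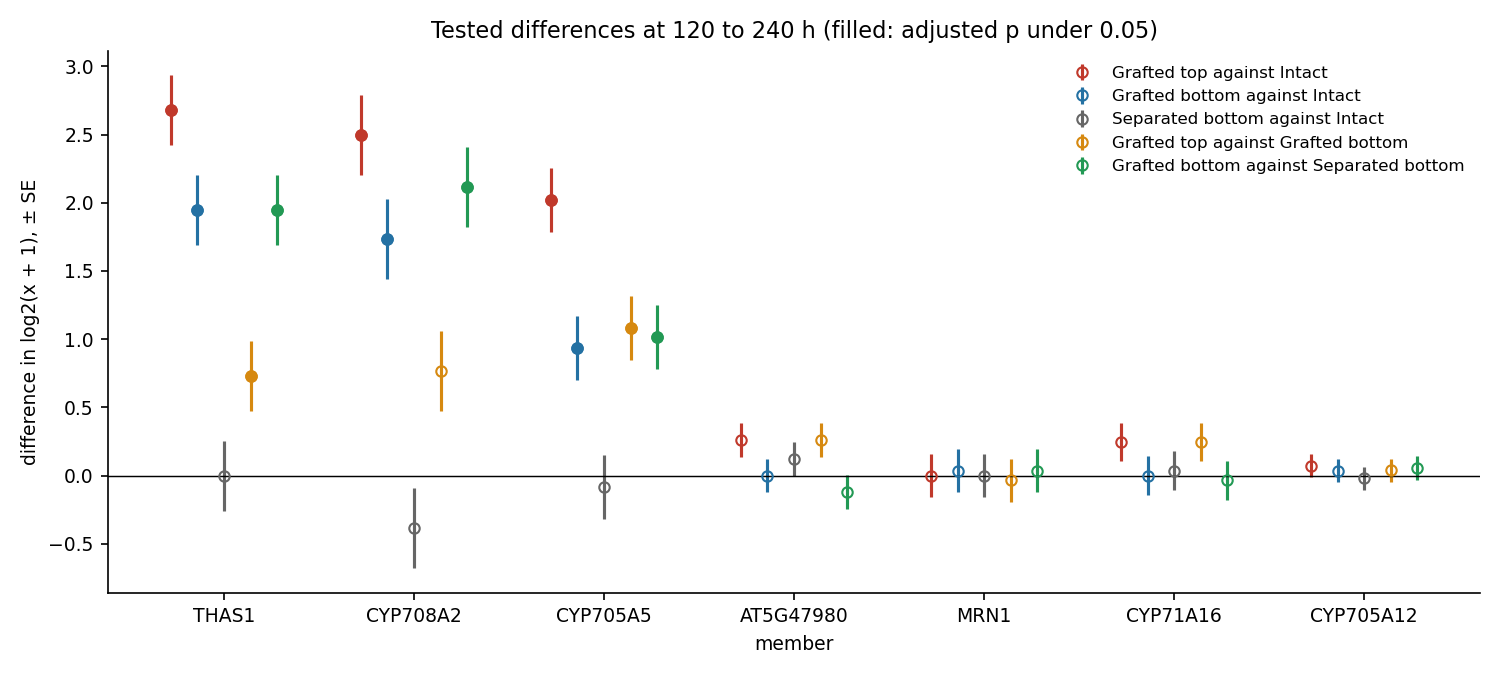
Difference in log2(x + 1) over 120 to 240 h for each member in the 5 comparisons that the choice of members did not use, with limma's SE as bars. Filled points, at an adjusted p under 0.05, are found in THAS1, CYP708A2 and CYP705A5, up to 2.68, and open points of the other 4 members lie between -0.12 and 0.26.

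Genes of root cell types moved in some of these tissues, so their levels are set beside the members. The root hair and epidermis list (RHD6, RSL4, COBL9, EXPA7, EXPA18 and IRT1) summed to 34.9 and 23.3 in separated tops at 48 h, 135 and 118 at 72 h, 80.2 and 92.6 at 120 h, 50.5 and 51.6 at 168 h, and 0.49 and 0.16 at 240 h. The root tip list (PLT1, PLT2, WOX5, SMB, BRN1 and BRN2) summed to 10.4 and 7.69, then 34.5 and 50.7, then 58.1 and 46.8, then 24.7 and 7.61, then 0.24 and 0.16. Both sums were above 0 at 48 h, when THAS1 stood at 0 and 0.08, and near 0 at 240 h, when THAS1 stood at 236 and 179. The lower sums at 48 h, 23.3 and 7.69, were mostly RHD6 and SMB. Over 48 to 72 h RHD6 was at 21.8 or more and SMB at 6.80 or more in every separated top. EXPA7, EXPA18 and PLT2 went down to 0 there, and IRT1 and BRN2 were at 0 throughout. At 240 h both replicates of CYP71A16, MRN1, AT5G47980 and CYP705A5 were also below all those of 120 and 168 h. Those of THAS1, CYP708A2 and CYP705A12 were not.

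Across the 6 late separated tops all 6 root hair and all 6 root tip markers were above 0 in at least 1 library, with summed x of 0.162 to 92.6 and 0.162 to 58.1. Late grafted tops held 6 of 6 root hair markers, summing to 0 to 15.3, and 5 of 6 root tip markers, summing to 0.486 to 8.66, with BRN2 at 0. At 240 h their root hair sum was 0.16 and 0, while THAS1 was at 35.9 and 4.86. In late grafted bottoms RHD6, EXPA7 and EXPA18 were at 0 in all 6 libraries and the root hair sum was 0 to 0.405, so the rise of the 3 thalianol genes there came with root hair markers at or near 0. Root tip markers summed to 0.162 to 0.728 in those bottoms, with PLT2, BRN1 and BRN2 at 0. In intact tissue the late sums were 0 to 0.162 and 0 to 0.566, with 3 of 6 and 1 of 6 markers above 0, and in separated bottoms 0 to 0.486 and 0 to 0.324, with 3 of 6 and 1 of 6.

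An endodermis list of 6 genes, with CASP1 and its kin, was present in every condition and summed to 41.8 to 503 in late separated tops, 89.7 to 232 in late grafted tops, 66.6 to 699 in late grafted bottoms, 74.0 to 120 in late separated bottoms and 483 to 935 in late intact tissue. It was highest in intact tissue, where the thalianol sum was 0.486 or below at 120 and 168 h and 4.69 and 8.09 at 240 h. The marneral sum there was 0.0809 or below. A photosynthesis list of 8 genes, which stands for green hypocotyl and leaf tissue, was above 0 throughout, at 750 to 12928 in late separated tops and 78709 to 107510 in late separated bottoms. The part of any of these lists in the results on the clusters was not tested.

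**Figure D4:**
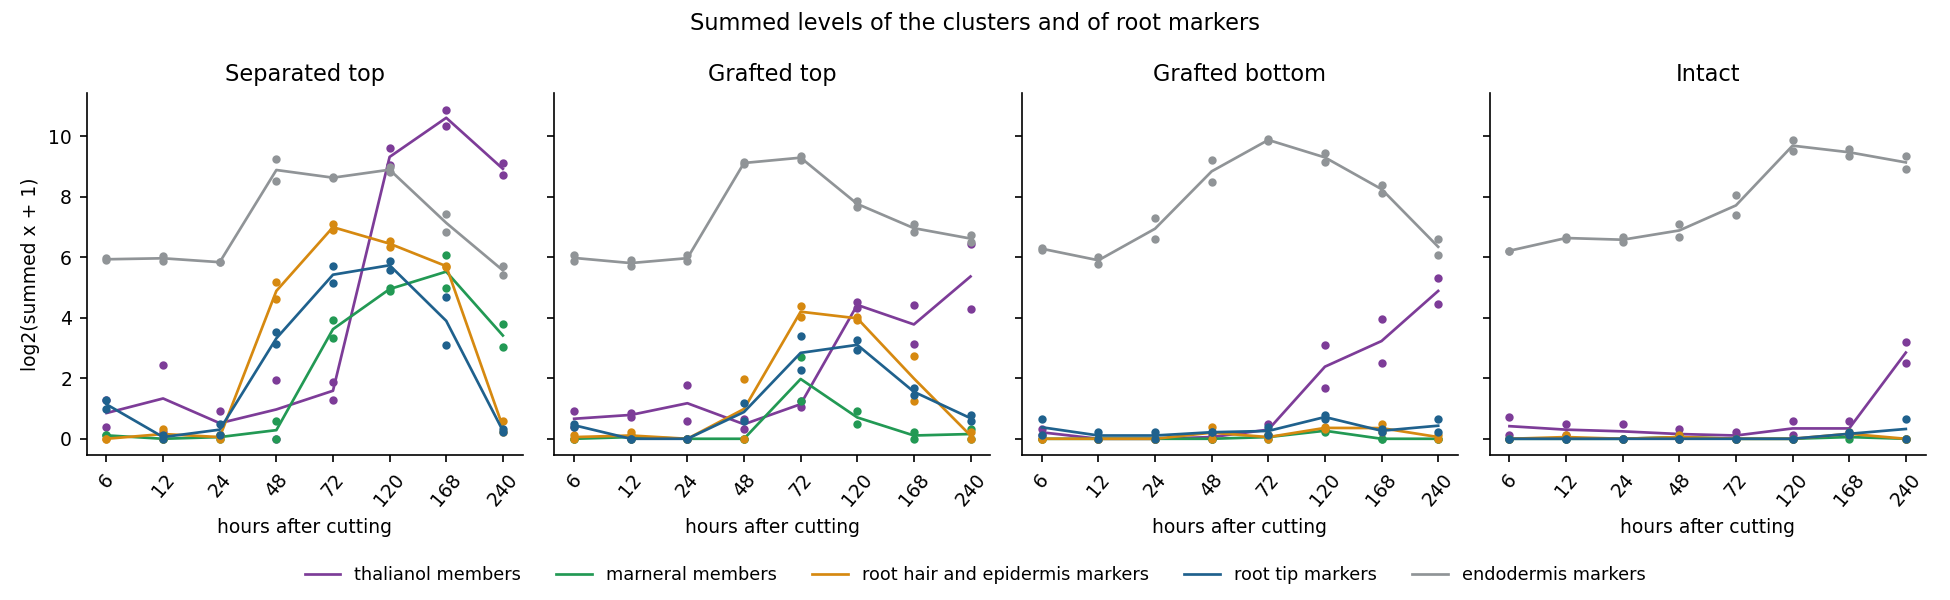
Summed level, as log2(summed x + 1), of the 4 thalianol members, the 3 marneral members and 3 lists of root cell markers against hours after cutting, in 4 conditions, with 1 point per library and lines through replicate means. In separated tops the root hair and root tip sums peak at 72 to 120 h and are near 0 at 240 h, when the thalianol sum is still high.

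All 10 genes beside the thalianol cluster differed less than its 4 members, while beside the marneral cluster 1 flanking gene differed more than MRN1. Differences here are in log2(mean x + 1), taken from the means over 6 late libraries. The 10 genes flanking the thalianol cluster were the nearest protein-coding ones, 5 on each side. Their late difference between separated tops and intact tissue ran from -0.18 to 2.88 with a median of 0.82. For the 4 members it was 5.40 to 8.10. AT5G47970, the nearest gene on one side, averaged 17.5 ± 1.2 in late separated tops and 20.0 ± 2.2 in intact tissue (SD, n = 6), and AT5G48020, the nearest on the other, 46.7 ± 7.9 and 44.4 ± 4.1 (SD, n = 6). The 2 flanking genes with the largest differences were AT5G47950, a BAHD acyltransferase gene at 2.88, and RABA4C, a Rab GTPase gene at 2.84. AT5G47950 followed the members, with 0.24 and 0.08 at 72 h, 7.53 and 10.9 at 120 h, 10.8 and 5.66 at 168 h, and 2.27 and 0.89 at 240 h in separated tops.

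Around the marneral cluster the 10 flanking genes differed by -0.87 to 2.19 with a median of 0.01, against 1.77 to 4.14 for the 3 members. AT5G42570, on one side, averaged 40.7 ± 2.2 in late separated tops and 19.7 ± 3.2 in intact tissue (SD, n = 6), and AT5G42610, on the other, 2.98 ± 3.24 and 6.30 ± 3.16 (SD, n = 6). ATS, a KANADI-type transcription factor gene, had the largest flanking difference, 2.19, above the 1.77 of MRN1, at 7.70 ± 8.73 and 0.904 ± 0.580 (SD, n = 6). Since the members were chosen on these libraries, the contrast between members and flanks is a description.

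**Figure D5:**
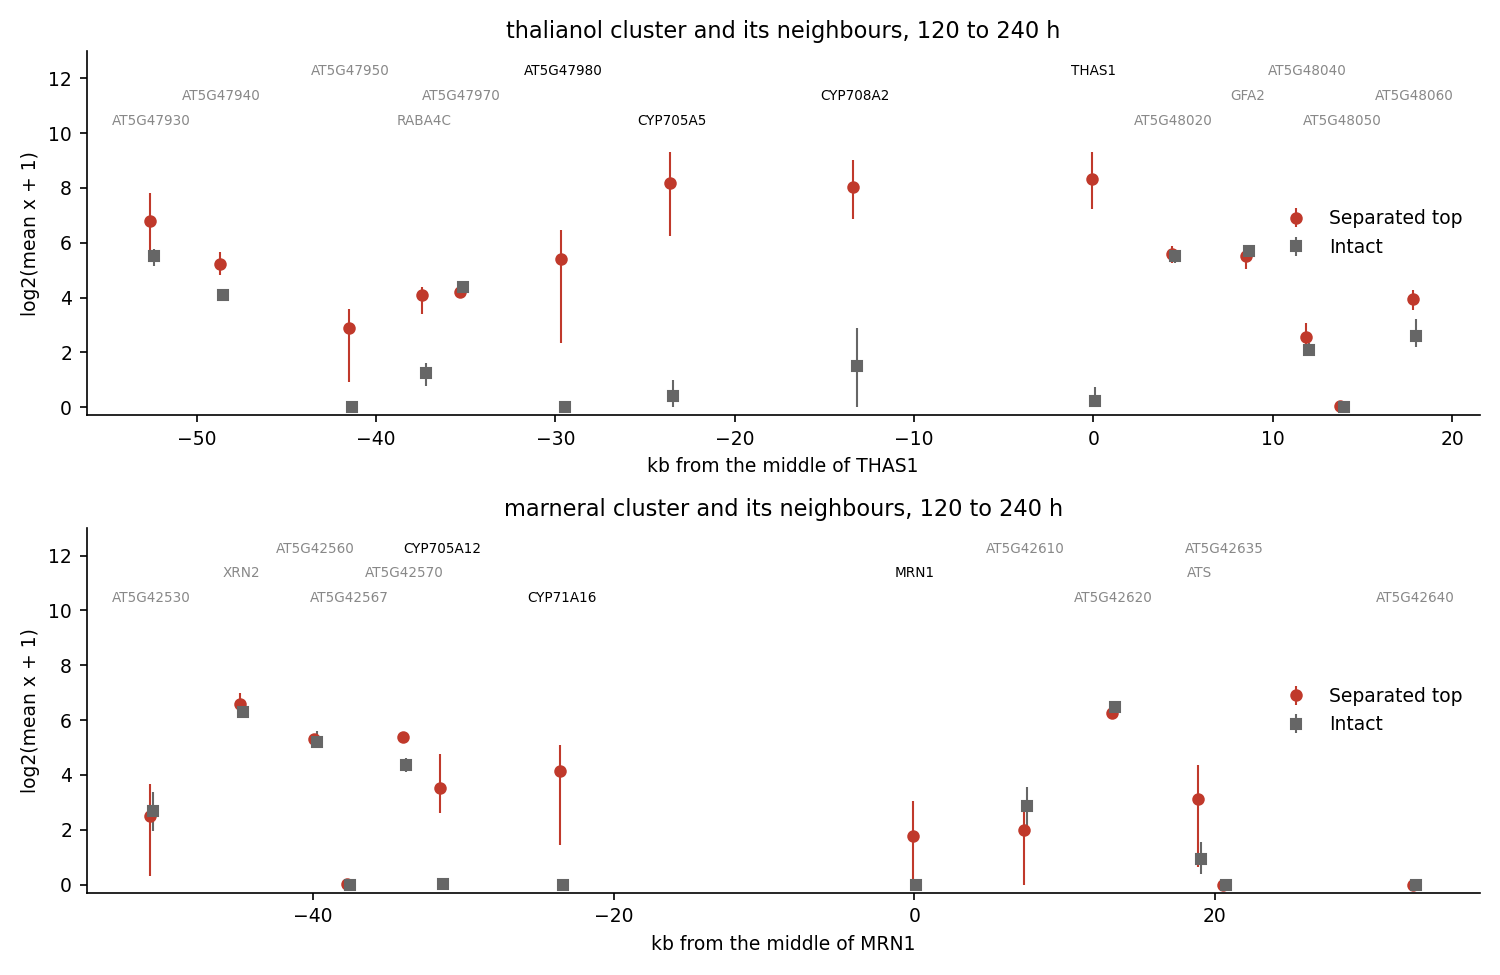
log2(mean x + 1) over 120 to 240 h in separated tops and intact tissue for the members (black names) and flanking genes (grey names) of each cluster, placed by distance in kb from the middle of the cyclase gene, with bars from the lowest to the highest of 6 libraries. Members lie apart between the conditions by 1.77 (MRN1) to 8.10, and flanking genes by at most 2.88.

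Other genes reported to act on thalianol lie outside the stretch of 4 members. They are the acyltransferase gene THAA2 (AT5G47950), and the reductase genes THAR1 (AT3G29250) and THAR2 (AT1G66800), which lie on other chromosomes. All 3 were higher in late separated tops than in separated bottoms, where 49.4% of all genes were higher and 30.2% lower. Quantile normalisation took the median of all genes there from 0.25 to 0.02 and the share of higher genes among all calls from 62.0% to 51.3%, with the 3 genes still called. THAR2 passed the filter on low values only through the late separated tops, and THAR1 and THAA2 reached an x of 1 in 2 and 3 of the other 76 libraries, so the count is a description. THAR1 stood at 58.6 ± 46.5 in the late separated tops and 0 in the intact tissue (SD over 6 libraries of 3 times), and THAR2 at 17.8 ± 10.8 and 0. Late grafted tops were also higher than intact tissue in all 3, by 0.32 to 0.68, where 30.6% of all genes were higher. Levels there were 0.917 ± 1.50 for THAR1, 0.553 ± 0.891 for THAR2 and 0.27 ± 0.264 for THAA2 (SD, n = 6). Each gene was at 0 in at least 1 library, and the highest values were 3.88, 2.27 and 0.647. Under quantile normalisation 0 of 3 passed (limma). In late grafted bottoms 0 of 3 were called against intact tissue (limma), where 25.4% of all genes were higher and 28.2% lower. THAR1 averaged 0.0674 there while THAA2 and THAR2 were at 0. THAA2 was also found in late separated bottoms, at 0.715 ± 0.508, and was called higher there than in intact tissue.

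Among other oxidosqualene cyclase genes, 9 of 11 listed were tested, and 3 of these (PEN3, PEN6 and LUP5) passed the filter on low values only through the late separated tops. Of the 6 that passed without those libraries, 4 were higher (LUP1, LUP2, CAMS1 and PEN1) and 2 lower (LAS1 and CAS1) in late separated tops than in separated bottoms by limma. Of all genes 49.4% were higher in that comparison and 30.2% lower. PEN6 and PEN3 are given by their values alone. PEN6, seco-amyrin synthase, was at 4.44 ± 2.51 in late separated tops and 0.0135 ± 0.033 in separated bottoms (SD, n = 6). PEN3, tirucalladienol synthase, was at 9.25 ± 9.52 and 0.0405 ± 0.0991, and both genes were at 0.405 or below in each of the other 76 libraries. The neighbours of PEN3, CYP716A1 and CYP716A2, were at 7.35 ± 6.87 and 6.85 ± 8.12 in late separated tops and at 0 in separated bottoms. LAS1, lanosterol synthase, went the other way, with 22.4 ± 10.4 in separated bottoms and 0.378 ± 0.249 in separated tops, and it reached an x of 1 in 11 libraries. CAS1, the cycloartenol synthase that opens the sterol branch, was the second that was lower, by -0.25 ± 0.07. LUP1, lupeol synthase, was high outside these tops too, at 69.5 ± 26.6 in late separated tops, 73.2 ± 16.2 in late grafted tops and 54.1 ± 23.0 in intact tissue.

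Late grafted tops had 3 of the 9 cyclase genes higher and 1 lower than intact tissue, near the 30.6% of all genes that were higher, with 24.7% lower. Under quantile normalisation 1 was higher and 1 lower. PEN6 and PEN3 were not among the genes called, at 0.0944 ± 0.165 and 0.0135 ± 0.033. In late grafted bottoms 1 was higher (PEN1, arabidiol synthase, by 0.72 ± 0.15) and 2 were lower (CAS1 and LUP1, by -0.66 ± 0.07 and -0.61 ± 0.18). Of all genes 25.4% were higher there and 28.2% lower. CYP716A1, beside PEN3, was higher in both late grafted parts, at 4.21 ± 2.30 in tops and 3.92 ± 1.50 in bottoms against 0.229 ± 0.278 in intact tissue. Of the cyclase genes of the clusters, THAS1 was called higher in both grafted parts, and MRN1 was listed at 0 in all 6 late grafted tops.

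The genes that supply 2,3-oxidosqualene moved in both directions. Of 19 genes from acetyl-CoA to squalene epoxide, 12 were higher and 6 lower in late separated tops than in separated bottoms. Of all genes 49.4% were higher there and 30.2% lower, and the medians were 0.36 for the 19 genes and 0.25 for all. Against intact tissue 12 were higher and 3 lower, where 44.7% of all genes were higher and 26.7% lower. HMG2, a HMG-CoA reductase gene, was at 28.2 ± 13.5 in separated tops, 5.06 ± 1.33 in separated bottoms and 9.10 ± 1.21 in intact tissue, and ACAT2, the first enzyme gene of the route, at 71.3 ± 57.6, 28.2 ± 6.15 and 23.0 ± 1.33. The squalene epoxidase genes split, since SQE2 was higher in tops than bottoms by 1.60 ± 0.22 while SQE1, SQE3, SQE4, SQE5 and SQE6 were lower, SQE5 by -3.95 ± 0.24 and SQE6 by -2.41 ± 0.13. Of 10 genes of the sterol branch 6 were higher and 2 lower against bottoms (median 0.32), and 3 higher and 1 lower against intact tissue (median 0.09 against 0.17 over all genes). In late grafted tops against intact tissue 5 of the 19 supply genes were higher and 7 lower (median -0.02). Of the 10 sterol genes 1 was higher and 5 were lower (median -0.18). That comparison had 30.6% of all genes higher and 24.7% lower.

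Some genes outside the clusters followed the same course over the 41 group means, which is set mainly by the late separated tops and is given with no p. With the mean of the standardised thalianol members THAR2 (AT1G66800) had the highest Pearson correlation, 0.966, and the tenth, the receptor-like kinase gene CRK25, had 0.956. Between them stood ANNAT7, an annexin gene, AT5G47000, annotated as a peroxidase, and AT3G32030, annotated as a terpenoid cyclase. ANNAT7 averaged 9.01 ± 5.46, AT5G47000 11.3 ± 6.41 and CRK25 18.9 ± 9.64 in late separated tops, and all 3 were at 0 in late intact tissue. With the marneral members AT5G40800 came first, 0.986, at a level of 1.20 ± 0.566, and PGL4 next, 0.976. AT5G04120, annotated as a phosphoglycerate mutase family gene, was also among the 10 nearest to the marneral course, at 108 ± 87.8 in late separated tops and 0.0135 ± 0.033 in intact tissue.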

How the data were processed

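The authors deposited 2 tables for 82 libraries. Each holds a score, the authors' own normalised value as a whole number: the first is scaled by library and the second by library and gene length, per the file headers. Tools listed are Bowtie2 and cutadapt 1.8.1, and TAIR10 is the build, per the submitters' processing notes; the counter, the scaling method and strand use are not given in those notes, so overlapping and near-identical genes, such as paralogous P450 genes, are uncertain. Per the labels' protocols, libraries had 15 PCR cycles and ran 11 to 12 to a lane in 7 lanes; lanes were not named, so they could not be compared.

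Values were rescaled to x (1 deposited unit is 0.0809 x), column sums having run from 10.05 to 19.7 M. Reads were estimated from steps between low values; they are PCR reads without molecular identifiers, and a gene listed at 0 is below that step, not absent. Genes reaching x of 1 in 2 or more libraries, 20766 in all, entered limma 3.58.1 (R 4.3.3) as log2(x + 1) (trend, 41 group means, 82 libraries, 41 residual degrees of freedom, median prior 5.00), and the pseudocount of 1 understates the change of low genes. A call needed a p under 0.05 after Benjamini-Hochberg adjustment across every gene tested. In the 3 windows (6 to 24, 48 to 72 and 120 to 240 h) 21 contrasts were tested for the members, and those with late separated tops were not. The fit was tested on simulated data.

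Same-numbered grafted tops and bottoms deviated together from their group means at all 8 times (correlation 0.148 to 0.506). A fit with them paired was therefore run as an alternative, from the values alone, with no label to say it. The main fit did not pair them. Other pairs of conditions correlated at some times too, grafted and separated tops by -0.014 to 0.494. Members, lists and contrasts were chosen with earlier results of these data known. Named genes are the 7 members, list members that a result turns on, and 5 protein-coding genes on each side of a cluster. Others come from the 10 genes most correlated with each cluster. Alternatives were other pseudocounts, filters, scalings, the per-length table, blocks, fits of 2 conditions and leaving out each library. Gene names, coordinates and sequences come from RefSeq's TAIR10.1, which matched 26719 identifiers. Figures were drawn with Matplotlib 3.10.9 from tables read with pandas 2.3.3 and NumPy 2.4.6 in Python 3.11.15.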

Additional observations from a re-analysis of the deposited data

Results flagged for a closer look

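The difference between grafted and intact tissue was larger at 120 to 240 h than at 6 to 24 h in 3 thalianol genes. This change was tested as an interaction contrast of the same limma fit, chosen after seeing the data. In grafted tops it was 2.68 ± 0.36 for THAS1 (limma, adjusted p = 3.8e-08), 1.99 ± 0.33 for CYP705A5 (limma, adjusted p = 2.4e-06) and 1.92 ± 0.41 for CYP708A2 (limma, adjusted p = 1.4e-04), 3 of 7 members where 26.8% of all genes were higher. In grafted bottoms it was 1.98 ± 0.36 for THAS1 (limma, adjusted p = 1.5e-05), 1.89 ± 0.41 for CYP708A2 (limma, adjusted p = 2.2e-04) and 1.01 ± 0.33 for CYP705A5 (limma, adjusted p = 0.0117), 3 of 7 members where 23.1% of all genes were higher.

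CYP71A16 differed between separated and grafted plants at 48 to 72 h. Its excess of tops over bottoms was 0.98 ± 0.24 larger in separated than in grafted plants (limma, adjusted p = 6.8e-04), in 1 of 7 members where 32.3% of all genes were higher. The gene was listed at 0 in all bottoms of these times, so this value repeats the difference between separated and grafted tops. That difference was not called with those 2 conditions alone in the fit (limma).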

How the results depend on the processing

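No difference of a called member, and neither late median, changed sign under any alternative run. Differences that were not called were not compared for sign. When a setting was changed, 14 calls of single members were lost. Of the counts of called members and the late medians, 175 values kept within their limit when a setting was changed and 213 when a library was left out, and of single called members 152 and 183 kept their call. The number of called members moved as follows; the cause was not tested. At 6 to 24 h the 1 call of separated tops against bottoms became 0 with a pseudocount of 4, with quantile normalisation and in the per-length table. That of grafted tops against bottoms became 0 with a pseudocount of 4 and in the per-length table. The 0 of separated tops and of grafted tops against intact tissue became 1 with a pseudocount of 0.25, with a replicate block and with 2 conditions in the fit. At 48 to 72 h the 1 call of separated tops against bottoms became 3 with a pseudocount of 0.25, 2 with a replicate block and 3 with 2 conditions. Against intact tissue it became 3 with a pseudocount of 0.25 and 4 with 2 conditions for separated tops, and 2 with 2 conditions for grafted tops. Grafted against separated tops went from 1 to 0 with 2 conditions. At 120 to 240 h grafted tops against bottoms went from 2 to 1 with quantile normalisation, to 0 with 2 conditions and to 3 with grafted tops and bottoms paired, and grafted tops against intact tissue went from 3 to 5 with a pseudocount of 0.25. The replicate block changed no other member's call in these comparisons.

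The median difference of the 7 members in late separated tops was 4.70 against bottoms and 4.82 against intact tissue, 6.44 and 6.75 with a pseudocount of 0.25, 3.01 and 3.05 with a pseudocount of 4, and 4.06 and 4.14 in the per-length table. With each library left out in turn it ran from 4.56 to 4.84 and from 4.68 to 4.96. The counts then ran from 0 to 1 for each comparison of tops at 6 to 24 h with bottoms or intact tissue, from 1 to 2 for separated tops at 48 to 72 h, from 1 to 3 for grafted tops against bottoms and from 3 to 4 for grafted tops against intact tissue at 120 to 240 h. A lone remaining replicate is assumed to vary like the other groups. Under an x of about 1 a value rests on 22.0 reads or fewer, which limits MRN1 and AT5G47980 outside the late separated tops.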
